A study of Homo sapiens with 15 samples.

Results

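Mitochondrial ribosomal proteins are the nuclear-encoded proteins of the ribosome inside mitochondria, and their genes carry symbols that begin with MRPL or MRPS. All protein-coding genes with such a symbol followed by a digit that were listed in both count tables were taken, which gave 78 of the 62700 annotated genes (hereafter MRP genes). Of these, 51 encode proteins of the large subunit and 26 proteins of the small subunit. The remaining gene, MRPS36, also called KGD4, is named as a small subunit protein but is now known as a component of the 2-oxoglutarate dehydrogenase complex. MRPS30 and MRPS18A carry small subunit names but sit in the large subunit, and they were counted there. Bulk RNA-seq was done on 143B, an established human osteosarcoma cell line, with 3 libraries for each of 5 conditions. Non-OSCs were wild-type cells grown attached in serum-containing medium, and osteosarcoma stem cells (OSCs) were wild-type cells of the same line grown as tumorspheres in serum-free medium with EGF and basic FGF. The other 3 conditions are OSCs infected with lentivirus carrying a control vector (shCtrl) or the short hairpin RNA shPDK1#1 or shPDK1#2 against PDK1, the kinase that inhibits pyruvate dehydrogenase. All libraries come from this 1 cell line, so they say nothing of other tumors, and OSC status cannot be told apart from culture format and medium. The labels do not say that replicates came from separate cultures, so p-values measure only the spread between these libraries, which may be technical.

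The mitochondrial ribosome translates the few messages of the mitochondrial genome, which encode core subunits of the respiratory chain and of the ATP synthase. Its rRNAs are transcribed inside the organelle, whereas every protein of it is made in the cytosol and imported. Its proteins are either homologs of bacterial ribosomal proteins or proteins found only in mitochondrial ribosomes, and osteosarcoma cells, like other dividing cells, use it to build the oxidative phosphorylation machinery. By this division, 46 MRP genes encode bacterial homologs and 31 encode mitochondria-specific proteins.

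Summed counts per library lay between 7992499 and 11256536, and 15 libraries entered the comparisons. Counts of an MRP gene in a library ranged from 26 to 1746, and all 78 genes passed the filter on low counts in both tables. PDK1 was at 45.4, 51.6 and 42.9 CPM (counts scaled to the size of the library) in non-OSCs and at 73.6, 69.9 and 67.5 CPM in OSCs. The shCtrl libraries held 46.7, 44.7 and 44.4 CPM of it, those of shPDK1#1 29.0, 27.8 and 27.3 CPM and those of shPDK1#2 18.3, 21.5 and 19.6 CPM, so the hairpin groups did not overlap shCtrl. The stem cell markers SOX2, KLF4 and ABCG1 all rose in OSCs. Of the osteoblast markers, COL1A1, SPP1 and RUNX2 were expressed, but IBSP was at 0 in every library and SP7 stayed below 1 CPM on average in every group. The summed level of 3 blood markers was at most 2.77 CPM in any library and that of 3 endothelial markers at most 1.85 CPM, with CDH5 at 0. Of the 4 epithelial markers, KRT8 and KRT18 fell in OSCs. Their list summed to between 1098 and 1228 CPM in non-OSCs and between 292 and 301 CPM in OSCs, while CDH1, its defining adhesion gene, was near 0 throughout. The part of these keratins in the results below was not tested.

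Promoters from RefSeq (GRCh38.p14, 250 bases before to 50 after the transcription start) were found for 70 of the MRP genes. They were searched on both strands for letters bound by regulators of mitochondrial genes, namely GCGCANGCG for NRF1, CCGGAAG for GABPA and other ETS factors, AANATGGCG for YY1, and CACGTG, the E-box. The 4 shown here, with matched letters in capitals, were picked because they carry the largest falls in OSCs among genes with each of the first 3 motifs, a start region shared between a pair of MRP genes (MRPL46) and the single rise (MRPS6).
MRPS33 (chr7:141014903-141015202, minus strand, NRF1 and GABPA/ETS letters): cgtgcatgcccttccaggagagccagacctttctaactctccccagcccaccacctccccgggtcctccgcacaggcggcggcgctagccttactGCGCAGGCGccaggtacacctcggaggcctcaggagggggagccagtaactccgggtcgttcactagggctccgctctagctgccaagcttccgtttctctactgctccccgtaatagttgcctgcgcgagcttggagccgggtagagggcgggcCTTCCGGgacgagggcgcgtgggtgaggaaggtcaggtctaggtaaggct
MRPS24 (chr7:43869468-43869767, minus strand, YY1 letters): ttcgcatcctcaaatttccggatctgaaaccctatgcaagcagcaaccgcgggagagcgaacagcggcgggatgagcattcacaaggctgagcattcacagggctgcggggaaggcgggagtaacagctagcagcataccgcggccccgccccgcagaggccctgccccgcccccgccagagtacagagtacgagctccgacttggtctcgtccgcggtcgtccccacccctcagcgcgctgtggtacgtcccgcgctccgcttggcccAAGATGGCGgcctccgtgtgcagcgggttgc
MRPL46 (chr15:88467339-88467638, minus strand, YY1 letters): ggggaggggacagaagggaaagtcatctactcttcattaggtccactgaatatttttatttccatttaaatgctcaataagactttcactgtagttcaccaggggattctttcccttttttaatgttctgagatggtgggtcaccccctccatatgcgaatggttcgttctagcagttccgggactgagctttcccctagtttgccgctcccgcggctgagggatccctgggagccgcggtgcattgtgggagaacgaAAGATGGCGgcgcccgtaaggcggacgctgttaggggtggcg
MRPS6 (chr21:34073328-34073627, plus strand, no match): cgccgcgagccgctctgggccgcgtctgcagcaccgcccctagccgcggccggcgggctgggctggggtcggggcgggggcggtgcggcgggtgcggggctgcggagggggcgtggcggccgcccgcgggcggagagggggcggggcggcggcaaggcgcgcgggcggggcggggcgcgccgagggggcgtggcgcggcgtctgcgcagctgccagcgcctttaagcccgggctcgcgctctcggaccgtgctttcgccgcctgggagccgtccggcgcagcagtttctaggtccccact

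YY1 letters were in 25.7% of the MRP promoters (18 of 70) and in 4.72% of the other protein-coding promoters. GABPA/ETS letters were in 41.4% (29 of 70) against 14.1%. NRF1 letters were in 18.6% (13 of 70) against 11% and E-boxes in 10% against 8.88%. Over all promoters the shares were 3.37% for YY1, 10.7% for GABPA/ETS, 8.05% for NRF1 and 7.43% for the E-box. At least 1 of the first 3 motifs was found in 68.6% of the MRP promoters and in 25.8% of the others. YY1 letters contain an ATG. Of the 18 matches in MRP promoters that read in the direction of the gene, 14 had this ATG at an annotated start codon. The matches in MRPS24 and MRPL46 are among these 14, so there the capitals in the sequences above also spell the first codons of the protein. A match is a description of the letters and not evidence of binding.

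The summed level of the MRP genes was lower in spheres than in attached cells. It was 4960, 5100 and 5125 CPM in the non-OSC libraries and 3304, 3423 and 3423 CPM in the OSC libraries. The mean of OSCs, 3383 ± 68.7 CPM (SD, n = 3), was 66.8% of that of non-OSCs, 5062 ± 88.9 CPM (SD, n = 3), and the libraries did not overlap. In this bulk RNA, fewer cells that express a gene and less RNA per cell cannot be told apart. In the hairpin table, the sum was 4018, 4054 and 4080 CPM with shCtrl, and the libraries of shPDK1#1 reached 4160, 4173 and 4173 CPM, those of shPDK1#2 4404, 4493 and 4434 CPM. Means were thus 103% and 110% of shCtrl, and every library with a hairpin lay above every shCtrl library. The share of all counts taken by MRP genes ran from 0.49 to 0.504% in non-OSCs, and in OSCs it was 0.336 to 0.346%. Genes of cytosolic ribosomal proteins fell alongside, from between 7.13 and 7.43% to between 4.53 and 4.7% of counts.

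**Figure D1:**
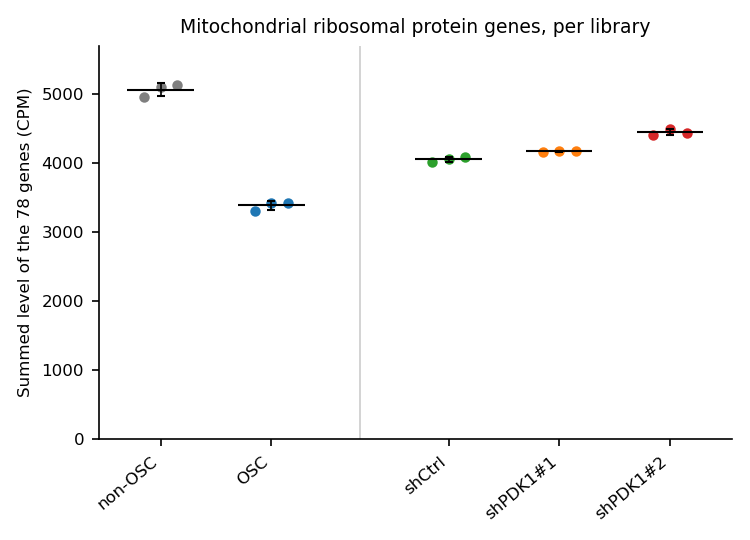
Summed level of the 78 MRP genes in CPM (vertical axis, from 0) in each library (points), by condition, with the mean (line) and SD (bar). The gray line parts the tables, which were normalized separately; OSC libraries lie between 3304 and 3423 CPM, all below the non-OSC libraries, and shPDK1#2 libraries lie between 4404 and 4493 CPM, all above shCtrl.

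Comparing OSCs with non-OSCs shows how the messages for this ribosome differ between the stem-like spheres and the attached cells. In OSCs, 69 MRP genes fell, 1 rose and 8 did not pass the test. Over all 14287 genes tested, 31.5% were called lower, 32.4% higher and 63.9% in either direction. The median log2 fold change of the MRP genes was -0.62 (quartiles -0.78 and -0.41), against -0.01 over all genes tested and -0.09 over 1643 protein-coding genes with transcripts in the quartile range of MRP transcript lengths (954 to 1777 bases). The fall was at least 0.5 on the log2 scale in 47 of the 69 genes and at least 1 in 4 of them. The libraries of OSCs lay below those of non-OSCs without overlap for 68 MRP genes, and this held for 33% of all genes.

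**Figure D2:**
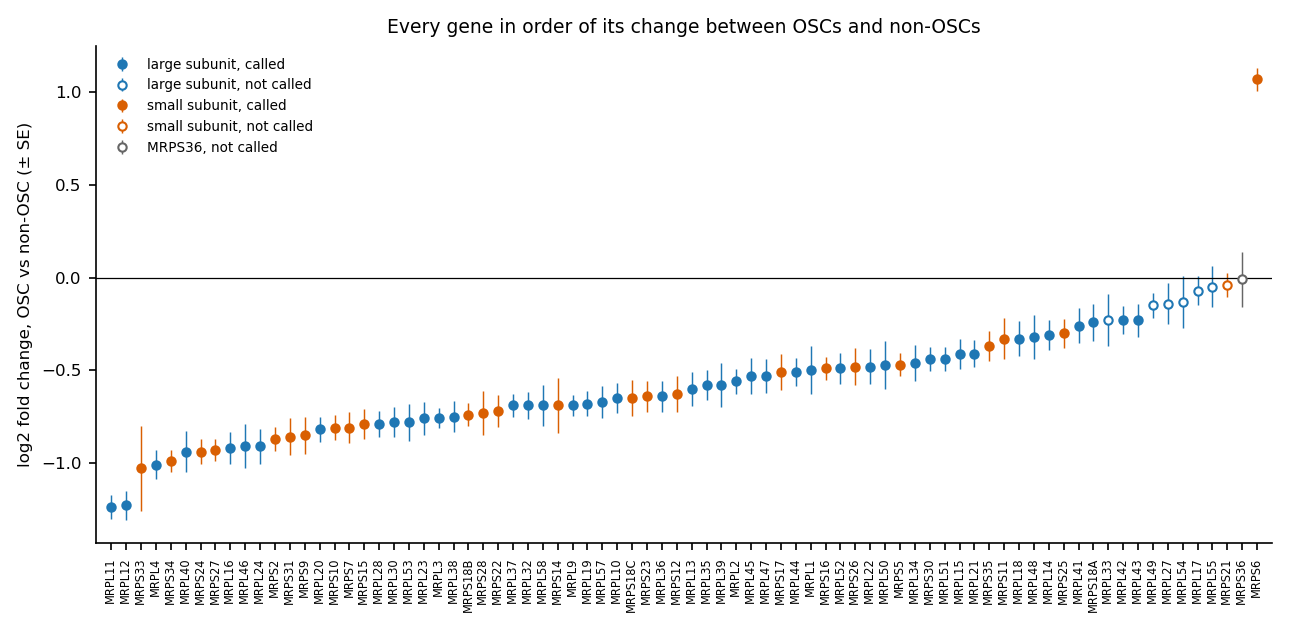
Log2 fold change between OSCs and non-OSCs (vertical axis, edgeR, bars show the standard error) for each of the 78 MRP genes, ordered by its value. Blue marks the large subunit, orange the small subunit and gray MRPS36; filled points were called at an adjusted p under 0.05. Only MRPS6, at 1.07, lies above 0, and the other genes run from -1.24 to -0.01.

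The 2 largest falls were in proteins of the stalk of the large subunit, the arm that recruits translation factors. MRPL11, at the stalk base (ENSG00000174547.13, chr11:66435075-66466738, minus strand), was at 113, 122 and 120 CPM in non-OSCs and at 51.4, 48.1 and 51.2 CPM in OSCs. All OSC libraries were thus below 52 CPM and all non-OSC libraries above 110 CPM. Its log2 fold change was -1.24 (SE 0.065, adjusted p = 3.54e-13), to 42.3% of the non-OSC level. MRPL12, the stalk protein itself (ENSG00000262814.8, chr17:81703367-81707517, plus strand), was at 122, 141 and 141 CPM in non-OSCs and at 50.1, 57.6 and 64.3 CPM in OSCs. The groups were again far apart, with a log2 fold change of -1.23 (SE 0.080, adjusted p = 1.18e-11). The transcript of MRPL12 shares 67.1% of its sequence with an annotated readthrough locus, to which the deposited table assigned 0 counts in every library. MRPL10, which anchors the stalk, fell by 0.65 on the log2 scale.

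Genes for proteins of the exit tunnel and the peptidyl transferase region had values of different sizes. MRPL4, whose bacterial homolog lines the tunnel, was at 87.1, 101 and 94.6 CPM in non-OSCs and at 43.7, 44.8 and 52.5 CPM in OSCs, a fall of 1.01 (SE 0.080, adjusted p = 3.46e-10). MRPL3, near the peptidyl transferase center, fell by 0.76 and MRPL22, another tunnel protein, by 0.48. MRPL45, which is known to hold the ribosome at the inner membrane, fell by 0.53. MRPL17, on the other hand, at the tunnel's outer rim, was at 70.2 CPM in non-OSCs and 66.7 CPM in OSCs on average and did not pass the test.

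Among small subunit proteins, MRPS33, MRPS34, MRPS24 and MRPS27 fell most. MRPS33 had few counts and was at 8.49, 7.77 and 9.15 CPM in non-OSCs and at 3.20, 5.77 and 3.26 CPM in OSCs, a log2 fold change of -1.03 (SE 0.230, adjusted p = 3.85e-04). The OSC libraries differed among themselves, and leaving out single libraries moved the value to between -1.38 and -0.88. MRPS34, needed for the stability of the small subunit, was at 162, 177 and 180 CPM in non-OSCs and at 84.0, 90.5 and 86.4 CPM in OSCs, a fall of 0.99 (SE 0.059, adjusted p = 3.12e-12). MRPS27, a pentatricopeptide repeat protein, was at 123, 120 and 124 CPM in non-OSCs and at 63.9, 64.1 and 64.1 CPM in OSCs, and fell by 0.93. MRPS24, the homolog of bacterial S3 at the mRNA entrance, went from 110, 119 and 117 CPM to 55.6, 62.4 and 62.0 CPM and fell by 0.94 (SE 0.066, adjusted p = 4.70e-11). Its promoter, shown above, holds the YY1 letters. MRPS24 shares 20.7% of its transcript with the readthrough gene URGCP-MRPS24, which held at most 4 counts in a library.

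MRPS6 was the single MRP gene that rose in OSCs. It encodes the homolog of bacterial S6, on the platform of the small subunit (ENSG00000243927.6, chr21:34073224-34143034, plus strand). Its level was 68.3, 70.4 and 72.7 CPM in non-OSCs and 152, 153 and 139 CPM in OSCs, so every OSC library was above every non-OSC library. The log2 fold change was 1.07 (SE 0.061, adjusted p = 1.37e-12), to 210% of the non-OSC level. SLC5A3, the myo-inositol transporter gene nested in the same locus on the same strand, was at 214, 192 and 196 CPM in non-OSCs and at 824, 795 and 777 CPM in OSCs, a log2 fold change of 1.99 (SE 0.046). The MRPS6 transcript shares 2.33% of its sequence with SLC5A3, and 9.48% of the exonic bases of MRPS6 overlap exons of other genes on its strand. How many MRPS6 counts stem from this overlap was not tested. With the hairpins the MRPS6 level was 142, 141 and 142 CPM (shPDK1#1) and 139, 141 and 148 CPM (shPDK1#2), against 139, 143 and 132 CPM with shCtrl, and neither difference was called.

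Not called between OSCs and non-OSCs were 8 MRP genes, namely MRPL33 (-0.23), MRPL49 (-0.15), MRPL27 (-0.14), MRPL54 (-0.13), MRPL17 (-0.07), MRPL55 (-0.05), MRPS21 (-0.04) and MRPS36 (-0.01), with the log2 fold change in parentheses. MRPS36, the protein that is not part of the ribosome, was at 16.7, 13.4 and 14.1 CPM in non-OSCs and at 17.0, 11.7 and 15.6 CPM in OSCs, and the groups overlapped. MRPS21 was at 89.1, 94.5 and 85.7 CPM in non-OSCs and at 90.6, 85.5 and 86.1 CPM in OSCs, likewise overlapping. MRPL33 shares 15.9% of its transcript with BABAM2.

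Falls were spread over both subunits. In the large subunit, 45 of 51 genes fell and 0 rose, with a median log2 fold change of -0.56, and in the small subunit 24 of 26 fell and 1 rose, with a median of -0.71. Bacterial homologs had a median of -0.65 (40 of 46 fell, 1 rose) and mitochondria-specific proteins had a median of -0.53 (29 of 31 fell). For comparison, 31.5% of all genes tested were called lower and 32.4% higher. The 3 paralogs of bacterial S18 differed in size. MRPS18B fell by 0.74 (SE 0.061) and MRPS18C by 0.65 (SE 0.097). MRPS18A, which sits in the large subunit, was at 36.2, 38.6 and 46.3 CPM in non-OSCs and at 29.6, 37.8 and 34.3 CPM in OSCs. These libraries overlapped, and its fall of 0.24 (SE 0.10, adjusted p = 0.048) was lost in 6 of 11 alternative analyses, where the adjusted p ran up to 0.29. MRPL58, a peptidyl-tRNA hydrolase that frees stalled ribosomes, fell by 0.69 (SE 0.110), and MRPS30 by 0.44 (SE 0.066).

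The hairpins against PDK1 were each compared with shCtrl to see whether the same messages respond when PDK1 is lowered in spheres. Both comparisons use the same shCtrl libraries, so their values stand side by side and are not independent. With shPDK1#1, 0 MRP genes were called by edgeR and 0 by DESeq2 (3.74% of the genes it tested), and by edgeR 3.06% of all 14574 genes were called, 1.62% higher and 1.44% lower. At an unadjusted p under 0.05 there were 7 of 78 (14.5% of all genes). The log2 fold changes ran from -0.26 to 0.26 with a median of 0.05. With shPDK1#2, 24 MRP genes rose and 1 fell, against 12% of all genes higher, 14.2% lower and 26.2% in either direction. The median log2 fold change was 0.15 (quartiles 0.05 and 0.22), and that of all genes was 0.01. The libraries of shPDK1#2 lay above those of shCtrl without overlap for 34 MRP genes (19.5% of all genes). DESeq2 called 13 MRP genes higher and 1 lower, against 9.11% and 12.2% of the genes it tested. Markers moved in the same libraries. The epithelial list summed to between 330 and 354 CPM with shCtrl, between 380 and 398 CPM with shPDK1#1 and between 436 and 476 CPM with shPDK1#2, where KRT18 rose by 0.43 (adjusted p = 8.38e-09) and KRT8 by 0.38 (adjusted p = 0.0124). The osteoblast marker COL1A1 rose by 0.51 with shPDK1#2. Its list summed to between 2350 and 2447 CPM with shCtrl and between 3681 and 3827 CPM with shPDK1#2. Of the 3 stem cell markers, ABCG1 fell by 0.83 with shPDK1#2, while SOX2 and KLF4 were not called. The part of these markers in the MRP values was not tested.

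**Figure D3:**
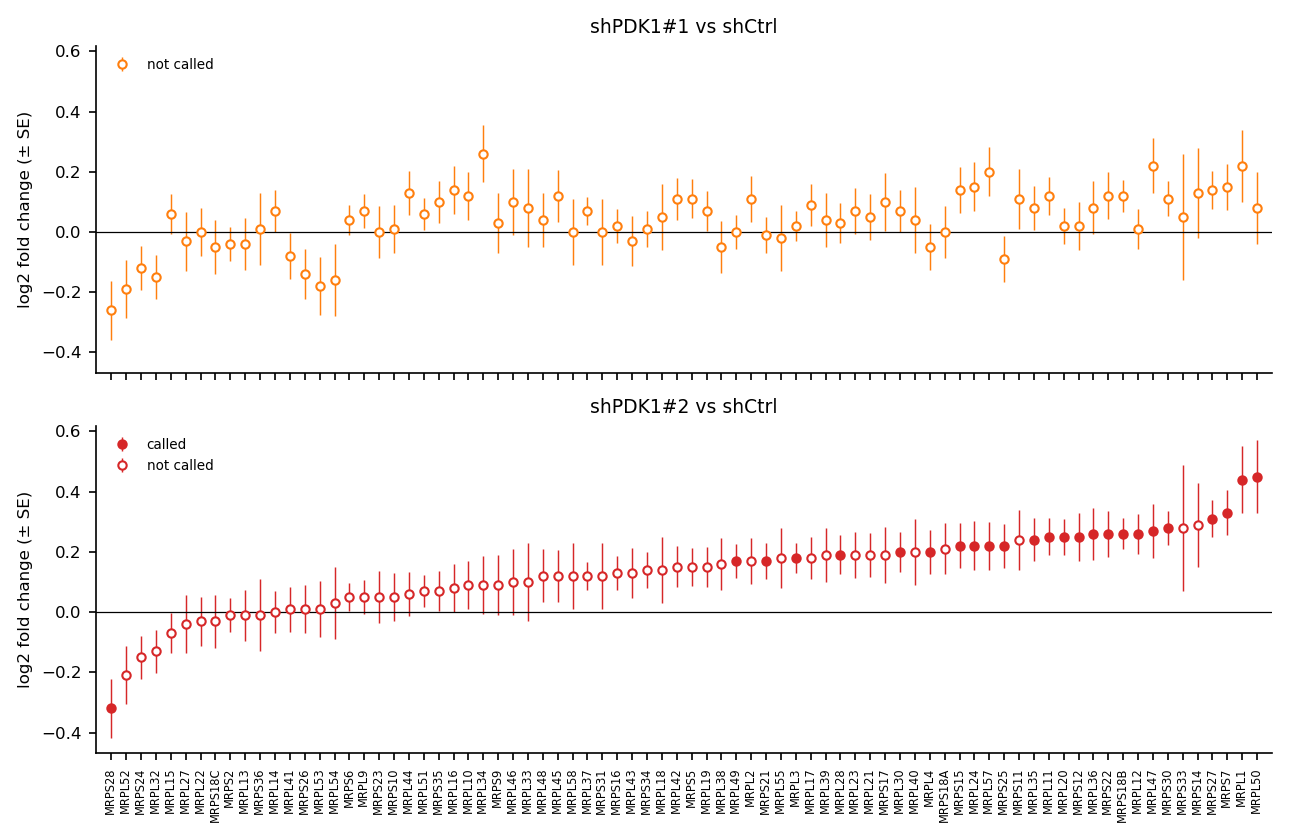
Log2 fold change against shCtrl (vertical axes, bars show the standard error) for each of the 78 MRP genes with shPDK1#1 (top) and shPDK1#2 (bottom), ordered in both panels by the value with shPDK1#2. Filled points were called; there are 0 in the top panel, and in the bottom panel 24 above 0 and MRPS28, at -0.32, below it.

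Changes with shPDK1#2 were small, and the largest was in MRPL50, a mitochondria-specific protein of the large subunit (ENSG00000136897.8, chr9:101387633-101398618, minus strand). It was at 15.1, 19.0 and 15.3 CPM with shCtrl and at 24.7, 22.1 and 21.0 CPM with shPDK1#2, a log2 fold change of 0.45 (SE 0.12, adjusted p = 0.00432). Levels with shPDK1#1 were 17.2, 19.5 and 15.8 CPM and overlapped those of shCtrl. MRPL1, of the arm next to the tRNA exit site, was at 14.4, 15.3 and 15.9 CPM with shCtrl and at 21.0, 20.6 and 20.1 CPM with shPDK1#2, a log2 fold change of 0.44 (SE 0.110, adjusted p = 0.00439). MRPS7, on the head of the small subunit, rose by 0.33 (SE 0.075) from 38.6, 39.5 and 43.4 CPM to 49.4, 54.0 and 49.0 CPM. MRPS27 rose by 0.31 (SE 0.061) from 88.0, 79.6 and 92.3 CPM to 113, 99.9 and 109 CPM. In all 4 genes every shPDK1#2 library lay above every shCtrl library. MRPS30 rose by 0.28 (SE 0.057, adjusted p = 5.10e-04), MRPS18B by 0.26 (SE 0.052, adjusted p = 4.24e-04) and MRPL47 by 0.27 (SE 0.090, adjusted p = 0.0286). The MRPL47 call was lost in 5 of 12 alternative analyses, with an adjusted p of up to 0.169. The stalk proteins MRPL11 and MRPL12 rose by 0.25 and 0.26.

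MRPS28, in the position of bacterial S1 on the small subunit, was the single MRP gene that fell. It was at 26.3, 31.4 and 32.9 CPM with shCtrl and at 23.6, 22.5 and 26.6 CPM with shPDK1#2, so the lowest shCtrl library lay within the shPDK1#2 range. The log2 fold change was -0.32 (SE 0.098, adjusted p = 0.016), and 4 of 12 alternative analyses lost the call, with an adjusted p of up to 0.0945. Levels with shPDK1#1 were 25.6, 24.6 and 25.5 CPM, all below shCtrl, with a log2 fold change of -0.26 that was not called (adjusted p = 0.192). Its transcript shares 23.4% of its sequence with an annotated overlapping locus that held at most 5 counts in a library.

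**Figure D4:**
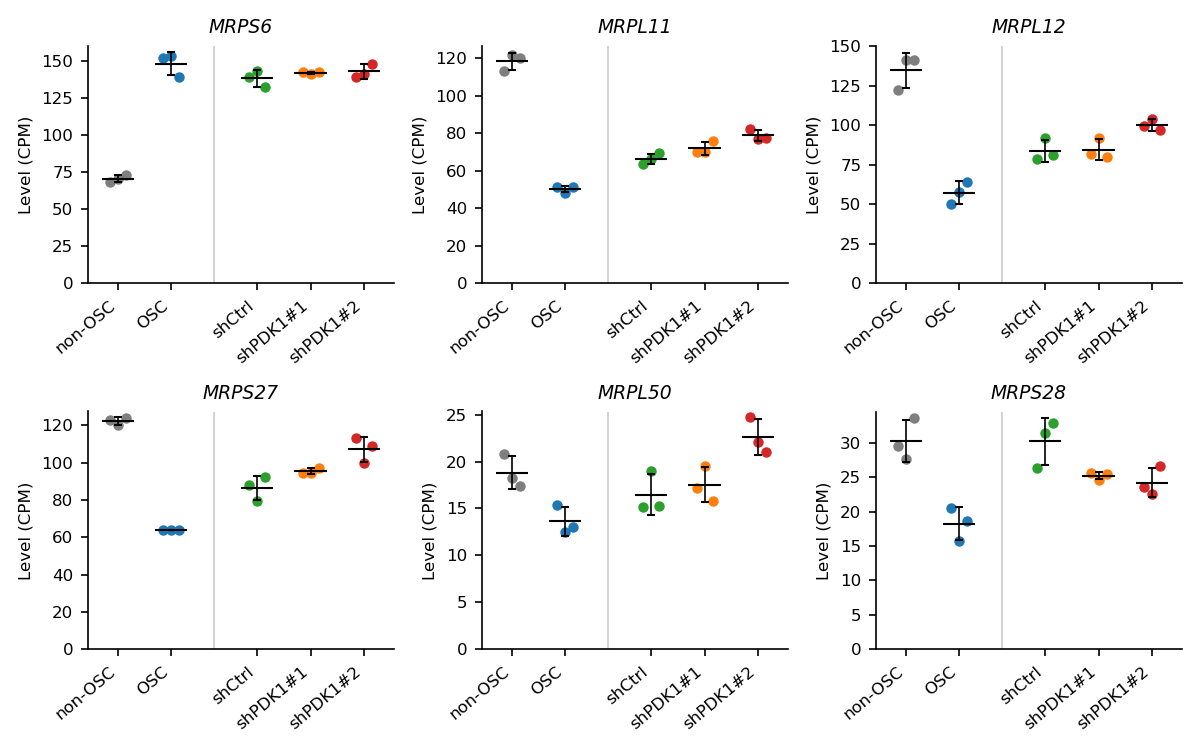
Levels in CPM (vertical axes, from 0) of 6 MRP genes in each library (points), with the mean (line) and SD (bar) of each condition; the gray line parts the separately normalized tables. MRPS6 is higher in OSCs than in non-OSCs, the other 5 genes are lower, MRPL11, MRPL12, MRPS27 and MRPL50 are higher with shPDK1#2 than with shCtrl, and MRPS28 is lower.

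A direct contrast of the hairpins called 10 MRP genes, all higher with shPDK1#2 (6.5% of all genes were called higher, 9.78% lower and 16.3% in either direction). The largest differences were in MRPL50 (0.38 on the log2 scale), MRPS25 (0.31), MRPL12 and MRPL4 (each 0.25). All 10 genes were also called higher with shPDK1#2 than with shCtrl. PDK1 itself was lower with shPDK1#2 than with shPDK1#1, by 0.50 on the log2 scale (SE 0.091, adjusted p = 2.40e-04). Against shCtrl, 16 of 51 genes of the large subunit rose and 0 fell with shPDK1#2. Within the small subunit 8 of 26 rose and 1 fell. In that comparison 12% of all genes were called higher and 14.2% lower.

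Whichever single library was left out, fewer MRP genes were called with shPDK1#2, between 14 and 18 against 25 in the full fit. Without shCtrl replicate 1 or without shCtrl replicate 2, 14 MRP genes were called, and without shPDK1#2 replicate 1, 16 were called. The median log2 fold change stayed between 0.14 and 0.16 in the alternatives run.

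Across the tables, 22 of the 69 genes that fell in OSCs were called higher with shPDK1#2 and 1 was called lower. This is 31.9% of the 69 genes and 91.7% of the 24 that rose with the hairpin. Of all 78 MRP genes, 69 fell in OSCs and 24 rose with shPDK1#2, so both shares are close to those of the whole set. Of all 4418 genes that were lower in OSCs and tested in both tables, 23.7% were called higher with shPDK1#2. Across the 78 genes, which share their libraries, the log2 fold changes of the 2 comparisons had a Pearson correlation of -0.15 and a Spearman correlation of -0.21, and over all 14047 genes Pearson's value was -0.31.

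Per base of transcript, levels spread widely although the proteins meet in 1 complex. The highest level was 86.3 times the lowest in non-OSCs and 164 times in OSCs, on the TPM scale, that is, counts divided by the length of the canonical transcript and scaled to a common total per library. The lowest gene in both was MRPS33, which held between 26 and 57 counts in the OSC libraries. The SD of log2 levels over the set was 1.26 in non-OSCs and 1.25 in OSCs. The order of the top genes differed between conditions. In non-OSCs MRPS34 and MRPS24 were highest, at 369 ± 16.3 and 368 ± 11.7 TPM (SD, n = 3), and did not differ beyond their SD. MRPL9, the homolog of bacterial L9, followed with 292 ± 15.4 TPM and MRPL20 with 289 ± 16.6 TPM, while MRPS6 was at 161 ± 2.95 TPM. In OSCs MRPS6 was highest, at 376 ± 23.2 TPM, and MRPL41 (215 ± 24.7 TPM), MRPS24 (213 ± 11.8 TPM), MRPS34 (206 ± 7.21 TPM) and MRPL9 (202 ± 5.15 TPM) came next, with neighbors in this order of 4 within an SD of each other. At the low end in both conditions were MRPS33, with 4.27 ± 0.317 and 2.29 ± 0.820 TPM, MRPL42, with 8.48 ± 0.674 and 8.05 ± 0.132 TPM, and MRPL50, with 12.0 ± 1.3 and 9.69 ± 1.17 TPM. MRPL42 has a canonical transcript of 15557 bases, the longest of the set (the median was 1242 bases), and this length sets its place. Those of MRPS33 (4210 bases) and MRPL50 (3336 bases) are long too, so the division by length also lowers their values. The median level of the large subunit was 86.2 TPM in non-OSCs and 68.5 TPM in OSCs, and that of the small subunit 86.9 and 63.1 TPM.

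Other genes of mitochondrial translation fell in OSCs too, where 31.5% of all genes tested were called lower and 32.4% higher. Of 28 genes for ribosome assembly and rRNA modification, 24 fell and 0 rose (median log2 fold change -0.67). C1QBP, a matrix protein linked to mitochondrial translation, fell by 1.22 (SE 0.046), the helicase DDX28 by 1.08 (SE 0.130) and the rRNA methyltransferase MRM2 by 0.99 (SE 0.081). Of 16 translation and messenger stability factors, 13 fell and 0 rose (median -0.66), led by SLIRP, an RNA-binding partner of LRPPRC (-1.33), and the ribosome recycling factor MRRF (-1.02). Of 17 mitochondrial aminoacyl-tRNA synthetases, which charge tRNAs, 14 fell and 1 rose (median -0.60), led by the methionine enzyme MARS2 (-1.46) and the glutamate enzyme EARS2 (-1.07). Of the 5 ribosomal proteins with other symbols, 4 fell, among them AURKAIP1 (-0.60), GADD45GIP1 (-0.52) and DAP3 (-0.41).

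Upstream regulators and the products of the mitochondrial genome were less uniform. Of 14 genes for mitochondrial transcription and its nuclear control, 6 fell and 1 rose, which is 50% called against 63.9% of all genes. The coactivator PPARGC1B was at 65.2, 67.0 and 62.0 CPM in non-OSCs and at 20.1, 20.0 and 19.2 CPM in OSCs (log2 fold change -1.71, SE 0.087). TFAM, which packages mitochondrial DNA, fell by 0.94 (SE 0.069). YY1 rose by 0.39 (SE 0.049), while NRF1 (0.01) and GABPA (-0.06) were not called. Of 15 genes of the mitochondrial genome, 9 fell and 2 rose, with a median of -0.19, and all 15 took 2.69 to 2.88% of the counts of non-OSC libraries and 2.94 to 3.15% of those of OSC libraries. MT-RNR2, the rRNA of the large subunit, was at 3958, 3623 and 3693 CPM in non-OSCs and at 6399, 5797 and 5953 CPM in OSCs, a rise of 0.69 on the log2 scale (SE 0.038). MT-ATP6 fell by 0.45 and MT-ND5 by 0.39. How rRNA was removed from these libraries is not given in the sources used here, and its part in the MT-RNR2 value was not tested.

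Among cytosolic ribosomal proteins, 72 of 73 genes tested fell in OSCs and 1 rose (median -0.71), against 31.5% and 32.4% of all genes. With shPDK1#2, 72 of 73 rose (median 0.31). With shPDK1#1, 27 of them rose and 0 fell (median 0.12). In the same comparison with shPDK1#1, 8 of the 15 genes of the mitochondrial genome fell, among them MT-CO1 (-0.28) and MT-CYB (-0.25). MT-RNR2 rose (0.26), and in the assembly list C1QBP alone was called (0.21). Over all genes, 1.62% were called higher and 1.44% lower with shPDK1#1. Of the 15 genes of the mitochondrial genome, 3 rose and 2 fell with shPDK1#2 (median -0.05). With shPDK1#2, 6 of 28 assembly genes rose, among them MTG1 (0.53) and C1QBP (0.51). In that comparison 5 of 16 translation factors rose, including SLIRP (0.38) and LRPPRC (0.30), as did 4 of 17 synthetases, including EARS2 (0.39). Called in either direction were 21.4% of the assembly genes, 31.2% of the translation factors and 23.5% of the synthetases, against 26.2% of all genes (12% higher), so the call rate of assembly genes and synthetases was not above that of all genes. TFAM rose by 0.21 and YY1 fell by 0.15, the only calls among the 14 regulators with shPDK1#2, and the TFAM call was lost in 2 of 12 alternative analyses (adjusted p up to 0.0854).

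**Figure D5:**
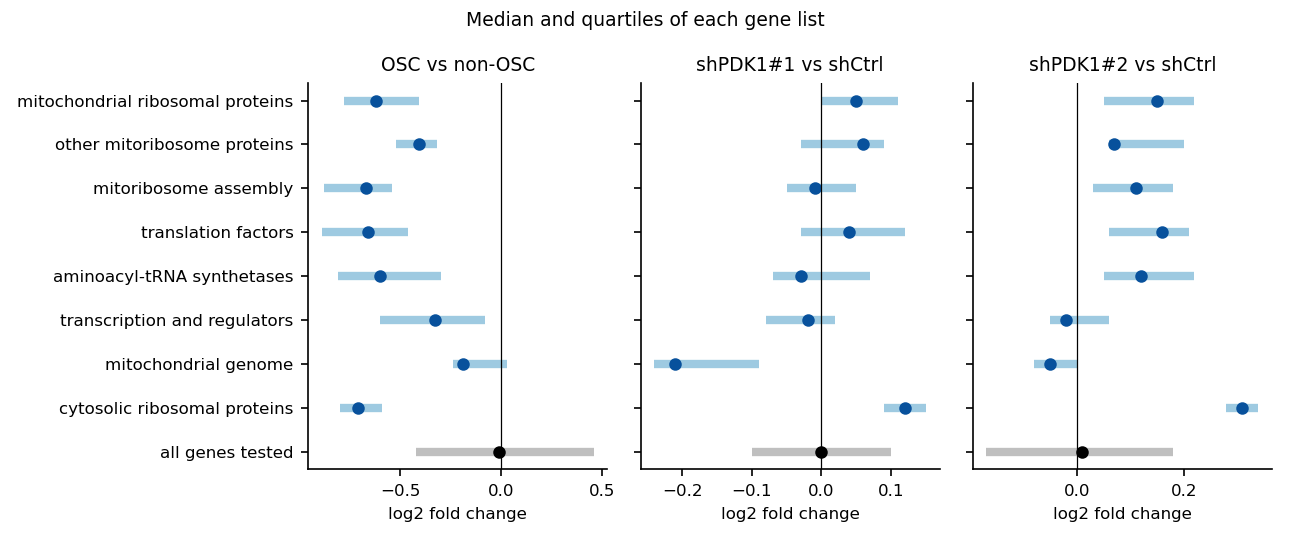
Median (point) and quartiles (bar) of the log2 fold change (horizontal axes, which differ in range) of each gene list in 3 comparisons; gray shows all genes tested. In OSCs the assembly, translation factor and synthetase lists lie between -0.67 and -0.60, near the MRP median of -0.62, the 5 other ribosomal proteins at -0.41 and the mitochondrial genome at -0.19, and with shPDK1#2 the cytosolic ribosomal proteins lie highest, at 0.31.

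Many MRP genes start next to another gene that points away from them. A protein-coding neighbor on the other strand with its start within 1000 bases was found for 26 of the 78 genes (33.3%) and for 9.51% of all protein-coding genes. MRPL46 and MRPS11 form such a pair, 320 bases apart, and fell in OSCs by 0.91 and 0.33. Besides this pair, the 24 partners include other genes of mitochondrial gene expression, such as SARS2 next to MRPS12, PTCD2 next to MRPS27 and the helicase TWNK next to MRPL43. Of the 23 partners tested, 17 fell and 2 rose in OSCs (median -0.47), and with shPDK1#2 5 rose and 1 fell. Over all genes tested, 31.5% were called lower and 32.4% higher in OSCs. With shPDK1#2, 12% of all genes were called higher, 14.2% lower and 26.2% in either direction. MRP genes with and without a partner had medians of -0.62 and -0.61 in OSCs. TWNK fell by 0.84 and MRPL43 by 0.23. Because the strandedness of the counting is not given and 38.1% of the MRPL43 exonic bases lie opposite other genes, reads of this pair cannot be fully told apart.

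Fold changes were also set beside the promoter letters, as a description with no test. In OSCs, the median log2 fold change was -0.69 for the 18 genes with YY1 letters and -0.55 for the 52 without. For GABPA/ETS letters the medians were -0.65 and -0.53, for NRF1 letters -0.65 and -0.58, and for the E-box -0.53 and -0.64. With shPDK1#2 the medians lay between 0.12 and 0.17, with or without each set of letters.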

How the data were processed

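The authors deposited RSEM 1.3.3 expected counts per gene, with OSC and non-OSC libraries in a table and shRNA libraries in another. Before that, paired-end reads had been trimmed (Trimmomatic 0.39), quality-checked (FastQC 0.12.1) and mapped by STAR 2.7.11a to GRCh38.p14. Annotation and strandedness are not given in the sources used here. RSEM shares ambiguous reads between genes, so 6.85% and 6.92% of values were not whole. Expected counts were rounded and tested with edgeR 4.0.16 in R 4.3.3 (filterByExpr, TMM, quasi-likelihood test, Benjamini-Hochberg adjustment over all 14287 or 14574 genes, threshold 0.05), in a separate fit per table. All 9 shRNA libraries shared a fit. CPM used TMM-normalized library sizes. All gene identifiers matched GENCODE 44, which gave symbols, coordinates, canonical transcripts, shared stretches of 75 bases and start distances. Columns were matched to samples by name, and 0 were left unmapped. In the OSC table, names that read as flat and spherical culture stand for non-OSC and OSC libraries.

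The MRP genes, lists and tests were chosen with earlier results of these data known. Named genes are those with the 6 largest called rises and falls per comparison, the 3 highest and 3 lowest levels per length, the S18 paralogs, MRPS30, MRPL58, and the 3 largest called changes per list. MRP genes named beside these by their role, position, level, partner or lack of a call, and the genes SLC5A3, NRF1 and GABPA, were added after their values were seen. Alternatives were DESeq2 1.42.0 with its size factors, a fit of the compared groups alone, a replicate block, library size alone, a minimum of 10 counts in all libraries, no filter, leaving out single libraries, and MRP genes with little shared sequence or with few bases opposite another gene. The NRF1 and YY1 letters were each shortened by 1 base after a first search had been seen, which raised the share of promoters holding NRF1 letters. The tests were checked on simulated counts. Figures used matplotlib 3.10.9 in Python 3.11.15. Depth was 7992499 to 11256536 counts per library, and the lowest MRP count was 26.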

Additional observations from a re-analysis of the deposited data

Results flagged for a closer look

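Both hairpins lower PDK1, but 10 MRP genes differed between them in the direct contrast (edgeR quasi-likelihood test, Benjamini-Hochberg adjustment over all genes). These are 12.8% of the MRP genes, against 16.3% of all genes called in either direction, 6.5% higher and 9.78% lower. Each value is the log2 difference of shPDK1#2 from shPDK1#1, and all 10 are positive. The largest was in MRPL50, at 0.38 (adjusted p = 0.023), with 0.08 for shPDK1#1 and 0.45 for shPDK1#2 against shCtrl. MRPS25, of the small subunit body, differed by 0.31 (adjusted p = 0.00375), with -0.09 and 0.22 against shCtrl. The stalk protein MRPL12 differed by 0.25 (adjusted p = 0.00909) and the tunnel protein MRPL4 by 0.25 (adjusted p = 0.0211). MRPL20 differed by 0.23 (adjusted p = 0.00583), and MRPS12, at the decoding center, by 0.22 (adjusted p = 0.0493). MRPS21 differed by 0.19 (adjusted p = 0.0296) and MRPS30 by 0.17 (adjusted p = 0.0429). The remaining differences were 0.16 (adjusted p = 0.0468) in MRPL49 and 0.16 (adjusted p = 0.027) in MRPL3. MRPS25 and MRPL20 kept the call in all 12 alternatives run for them, and the other 8 lost it in at least 1.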

How the results depend on the processing

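The number of MRP genes called between OSCs and non-OSCs (70) lay between 54 and 71 in the 13 alternatives, where the 54 and a value of 60 come from smaller sets of genes, and with each library left out in turn between 66 and 70. The median log2 fold change ran from -0.63 to -0.58. With shPDK1#1 the count was 0 in all 14 alternatives. With shPDK1#2 the count of 25 became 14 under DESeq2 with its size factors and between 14 and 18 with each library left out in turn (12 higher and 2 lower without shCtrl replicate 1), and reached 29 with at least 10 counts in every library. The 10 genes of the hairpin contrast became 6 under DESeq2 (6.07% of the genes it tested were called higher), and between 4 and 8 with each library left out in turn. They became 4 without shPDK1#1 replicate 1, 5 without shPDK1#1 replicate 3, 4 without shPDK1#2 replicate 1 and 6 without shPDK1#2 replicate 3. The cause was not tested. Medians with both hairpins kept their direction. Of 70 results for single genes, 53 kept their call in every alternative run, 17 lost it in at least 1 and 0 reversed. The set of MRP genes with under 10% of exonic bases opposite another gene was chosen after seeing the data.

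Replicate numbers are shared between groups, and samples with the same number deviated together by a correlation of only -0.05 to 0.09. Samples with different numbers gave -0.08 to 0.05. Whether libraries with the same number share a culture or a batch cannot be told from these values. With a replicate block, 71 MRP genes were called between OSCs and non-OSCs, 0 with shPDK1#1, 27 with shPDK1#2 and 11 between the hairpins, and none of these counts moved by over 1.5 times.

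Precision is limited by 3 libraries per group and, for the lowest genes, by counts from 26 upward, so a gene that was not called is not shown to be unchanged. Expected counts of genes that share sequence, 11 MRP genes with 10% or more of the transcript, depend on how RSEM split the reads.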

Other observations

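Messages of the mitochondrial genome, which the proteins described here translate, moved gene by gene. MT-CO1, the core of cytochrome c oxidase, was at 6542, 6166 and 6330 CPM in non-OSCs and at 7829, 7593 and 7674 CPM in OSCs, a log2 fold change of 0.28 (SE 0.030, edgeR adjusted p = 3.71e-08), and the groups did not overlap. It was the single called rise among the 13 protein-coding genes of that genome. Subunits of respiratory complex I fell by 0.26 (MT-ND1), 0.23 (MT-ND2) and 0.24 (MT-ND3), while MT-ND4, at 0.04, was not called. With shPDK1#1, MT-CO1 was at 7705, 7004 and 8328 CPM against 9275, 8934 and 9729 CPM with shCtrl, and with shPDK1#2 it was at 9264, 8908 and 8759 CPM. The shPDK1#1 libraries were all below shCtrl, and the direct contrast of the hairpins gave 0.23 (adjusted p = 0.000273).

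Among the mitochondrial aminoacyl-tRNA synthetases, the arginine enzyme RARS2 alone was called higher in OSCs, with 29.1, 23.9 and 27.7 CPM in non-OSCs and 31.9, 31.0 and 34.4 CPM in OSCs (log2 fold change 0.27, adjusted p = 0.0222). Elongation factors followed the MRP genes down, with TUFM at -0.90, TSFM at -0.62 and GFM1 at -0.85, while the release factor MTRF1L was at 0.01 and not called. TUFM and GFM1 rose with shPDK1#2, by 0.20 and 0.21. The 79 genes annotated as pseudogenes of MRP genes together held between 0 and 9 counts in a library. The genes in this part were chosen after their values were seen.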
